A study of Caenorhabditis elegans with 36 samples.

Results

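The 46 genes described here encode nuclear subunits of the mitochondrial respiratory chain and of ATP synthase in the nematode Caenorhabditis elegans. They were taken by a list of gene identifiers, a rule with no measured value in it, from the 24931 named genes of the deposited tables. The list was drawn up with earlier results of these data known. By complex, 15 belong to complex I, 5 to complex II, 8 to complex III, 6 to complex IV, 10 to ATP synthase (complex V) and 2 encode cytochrome c. All 46 identifiers were found in the tables.

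The respiratory chain sits in the inner mitochondrial membrane. Complex I takes electrons from NADH and complex II takes them from succinate, both pass them to ubiquinone, complex III passes them on to cytochrome c, and complex IV hands them to oxygen. Complexes I, III and IV pump protons out of the matrix, and ATP synthase makes ATP as the protons flow back. Most subunits come from nuclear genes and the rest from the mitochondrial genome. In C. elegans this pathway is known for the gas-1 and mev-1 mutants, which are sensitive to oxidative stress and short-lived, and for the isp-1 and nuo-6 mutants, which are long-lived.

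Whole animals were sequenced in 36 libraries, 3 for each of 12 groups. The wild type was N2 (Bristol), and the mutant carried mbl-1(tm1563), an allele of the muscleblind gene, whose protein regulates splicing. The other 4 strains were transgenic for gfp driven by the myo-3 promoter, which is active in body wall muscle: mgIs64 (123CUG strain 1) and mgIs84 (123CUG strain 2) carry 123 CUG repeats in the 3′ UTR of gfp, and mgIs65 (0CUG strain 1) and mgIs85 (0CUG strain 2) carry 0 repeats. Every strain was collected under the labels L4, the last larval stage, and 2-day-old adult, after synchronisation of eggs with hypochlorite and growth on HT115 bacteria with the empty RNAi vector. The tissue is the whole body, so the muscle in which the transgene is driven is only part of each sample, and each construct is represented by 2 strains.

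Library totals ran from 25251114 to 47914774 counted reads. The level of a gene is given in CPM, its reads per 1000000 of the scaled library size, on one scale for all 36 libraries, and levels of different genes are compared only as CPM per kilobase of gene length. The labels do not say whether the 3 libraries of a group came from separate cultures, so the tests measure the spread between libraries, which may be technical. In N2 and mbl-1, the samples with the label L4 held adult transcripts: vit-2, a yolk protein gene of the adult intestine, stood at 29908 to 37962 CPM in them against 478 to 2430 CPM in transgenic L4. They are called "labelled L4", and no test is made between N2 or mbl-1 and the transgenic strains. Counts per gene do not resolve which part of mbl-1 is deleted, so its level checks no label. Under the label L4 that level was 13.4, 13.7 and 14.3 CPM in N2 and 13.4, 9.63 and 14.6 CPM in the mutant, which overlap. In 2-day adults it was 15.4, 17.4 and 33.2 CPM in N2 and 14.3, 13.9 and 10.6 CPM in the mutant, which do not. In the third N2 and the third mbl-1 libraries of 2-day adults, muscle and oocyte markers went against the other libraries of their groups. The summed level of 12 oocyte markers was 3055 CPM in the third N2 adult library against 8291 and 6632 CPM in the other N2 adults, and 7924 CPM in the third mbl-1 adult library against 2314 and 3943 CPM.

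The summed level of the 46 genes was highest in the transgenic L4 libraries. It was 18056 to 23176 CPM over those 12 libraries, 10436 to 13727 CPM over the 12 transgenic adult libraries and 12652 to 15586 CPM over the 12 N2 and mbl-1 libraries. As a share of all counted reads, the genes took 2.03 to 2.43% in transgenic L4, 1.03 to 1.35% in transgenic adults and 1.15 to 1.42% in N2 and mbl-1. The transgenic L4 libraries did not overlap with any other in this sum or in share. In whole-animal RNA, fewer cells of a type and less RNA per cell cannot be told apart.

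Most of the complexes showed the same order. Complex I summed to 3652 to 4377 CPM in transgenic L4 libraries and 2031 to 2533 CPM in transgenic adults. Complex III summed to 2622 to 3246 and 1487 to 1844 CPM in the same libraries, complex IV to 2636 to 3324 and 1467 to 2167 CPM. ATP synthase took the largest sum, 7440 to 10268 CPM in transgenic L4 and 4392 to 6085 CPM in transgenic adults. The exception was complex II, which summed to 618 to 806 CPM in transgenic L4 and 481 to 631 CPM in transgenic adults, so that its ranges overlapped. In N2 and mbl-1 the sums were 2158 to 2610 CPM for complex I, 549 to 644 for complex II, 1713 to 2085 for complex III, 1811 to 2494 for complex IV and 5714 to 7176 for complex V.

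**Figure D1:**
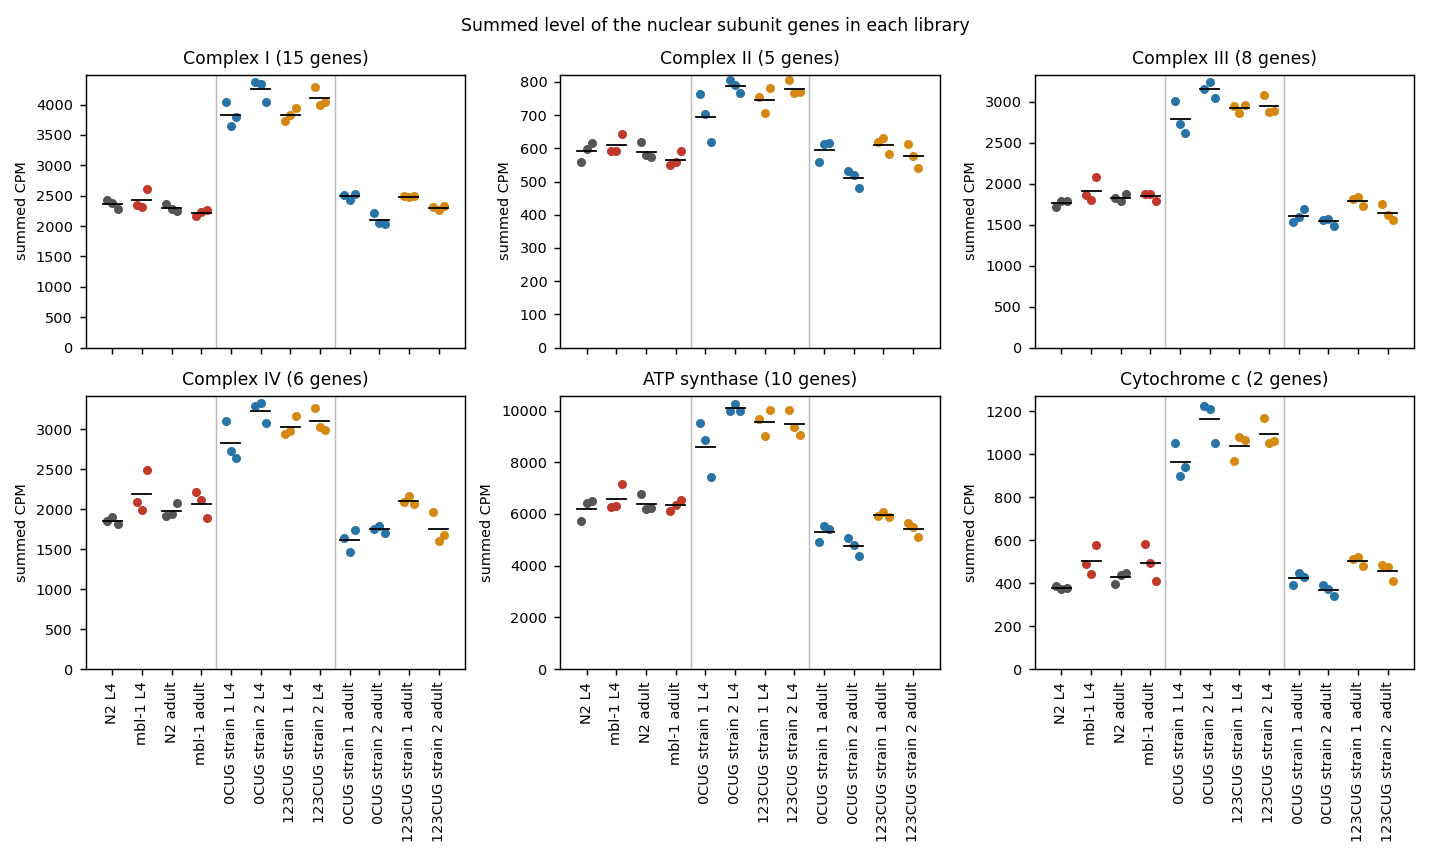
Summed level of each complex in CPM (y axes start at 0) in each of the 36 libraries (points), by group, with the mean of the 3 libraries as a line. The 12 transgenic L4 libraries stand above all the others for complexes I, III, IV and V and cytochrome c, and complex II overlaps between the stages.

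Per kilobase, the genes differed widely in level. Cytochrome c (cyc-2.1, chromosome IV, 4747901 to 4748449, WBcel235) had group means of 1654 to 2008 CPM per kilobase in the transgenic L4 groups. The beta subunit of the catalytic head of ATP synthase, atp-2 (chromosome III, 5228409 to 5230544), had 1278 to 1440 in the same groups, 781 to 960 in the transgenic adults and 1006 to 1053 in N2 and mbl-1. At the low end in transgenic L4 were ucr-2.3 (7.46 to 12.9 CPM per kilobase), a paralogue of the complex III core protein, and sdha-2 (8.14 to 10.7), a paralogue of the complex II flavoprotein. Both stood far higher in adults.

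The transgenic strains show how the genes differ between L4 and 2-day adults. With the 2 strains of a construct averaged, 43 of the 46 genes were lower and 3 were higher in 0CUG adults, and the counts were equal in 123CUG adults (edgeR's quasi-likelihood test with Benjamini-Hochberg adjustment over all genes, adjusted p under 0.05). Most of the genome changed too: 82.7% of the 17248 genes tested were called for 0CUG, 48.3% lower and 34.4% higher, and 82.6% for 123CUG, 47.1% lower and 35.5% higher. The median of the 46 genes was -0.88 on the log2 scale for 0CUG, where all tested genes had a median of -0.48. For 123CUG the medians were -0.73 and -0.41. The 43 include cyc-2.2, which passed the filter on low counts only through its L4 libraries and so had to fall, and without it 42 of 45 genes were lower.

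All 15 complex I genes fell in both constructs. The largest fall was that of gas-1 (chromosome X, 15586813 to 15590397), the 49 kDa core subunit near the ubiquinone site. Its level had a lowest value of 288, a median of 341 and a highest value of 369 CPM over the 12 transgenic L4 libraries, against 42.9, 66.3 and 96.0 CPM over the 12 adult libraries. The groups did not overlap, and the difference was -2.53 ± 0.087 (SE, log2, adjusted p = 3.30e-19) for 0CUG and -2.23 ± 0.086 (adjusted p = 2.87e-18) for 123CUG. K09A9.6 overlaps gas-1 on the other strand and changed by -2.92 and -2.61. Its group means were 24.3 to 35.2 CPM in transgenic L4. The smallest fall was that of ndab-1, one of 2 genes for the acyl carrier subunit, which ran from 141 to 182 CPM in L4 (median 162) and from 116.3 to 168 CPM in adults (median 137). The libraries of ndab-1 overlapped, with differences of -0.23 (adjusted p = 0.00739) and -0.24 (adjusted p = 0.00709). Its paralogue ndab-2 ran from 163 to 232 CPM in L4 (median 199.9) and from 129 to 156 CPM in adults (median 141). Its L4 libraries all lay above its adult libraries, with differences of -0.62 for 0CUG and -0.34 for 123CUG. ndab-2 overlaps epg-4 on the same strand, and the counting of reads in the overlap is not stated. epg-4 itself rose by 1.85 and 1.63. The median of the complex I genes was -0.75 and -0.70.

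In complex II, mev-1 (chromosome III, 10334267 to 10335181), the cytochrome b subunit that anchors the enzyme in the membrane, ran from 125 to 172 CPM in L4 (median 148) and from 73.1 to 137 CPM in adults (median 88.1). The high adult libraries were those of 0CUG strain 1, which overlapped with L4. The fall was -0.53 ± 0.077 for 0CUG and -0.79 ± 0.077 for 123CUG. mev-1 overlaps ced-9 on the same strand, and the counting of reads in the overlap is not stated. ced-9 itself rose by 2.41 and 2.28, with group means of 53.5 to 89.5 CPM in transgenic adults, highest in 0CUG strain 1. The iron-sulphur subunit sdhb-1 changed by -0.79 and -0.72, and the membrane subunit sdhd-1 by -0.77 and -0.64.

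In complex III, isp-1 (chromosome IV, 8133789 to 8136057), the Rieske iron-sulphur protein, ran from 472 to 599 CPM in L4 (median 538) and from 207 to 277 CPM in adults (median 238). Every L4 library lay above every adult library, and the difference was -1.23 ± 0.069 for 0CUG and -1.09 ± 0.068 for 123CUG. Cytochrome c1, the product of cyc-1 and the subunit that delivers electrons to cytochrome c, changed by -0.96 and -0.74. The core protein gene ucr-1 changed by -0.86 and -0.88.

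All 6 complex IV genes fell, with differences from -0.62 (cox-6A) to -0.93 (cox-5A) in 0CUG and from -0.43 (cox-7C) to -0.78 (cox-5A) in 123CUG. cox-5B (chromosome I, 9788749 to 9789922), a nuclear subunit of the oxidase, ran from 471 to 595 CPM in L4 (median 534) and from 236 to 367 CPM in adults (median 301). The stages did not overlap for cox-5B, and the difference was -0.89 ± 0.080 and -0.73 ± 0.080.

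In ATP synthase, 9 of the 10 genes fell. atp-2 ran from 2019 to 2914 CPM in L4 (median 2679) and from 1344 to 1935 CPM in adults (median 1743). The lowest L4 library stood just above the highest adult library, and the difference was -0.68 ± 0.078 and -0.58 ± 0.078. asg-2, a gene for the g subunit of the membrane part, ran from 377 to 491 CPM in L4 (median 436) and from 65.9 to 154 CPM in adults (median 105), without overlap. Its difference was -2.24 in 0CUG and -1.99 in 123CUG. The median over the complex was -1.04 for 0CUG and -0.83 for 123CUG. Cytochrome c from cyc-2.1 ran from 889 to 1217 CPM in L4 (median 1050) and from 341 to 522 CPM in adults (median 438), again without overlap. The difference was -1.41 ± 0.069 and -1.15 ± 0.069.

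Marker genes of several tissues moved with stage in the same libraries. The summed level of 12 body wall muscle markers was 6967 to 11485 CPM in transgenic L4 and 1475 to 3239 CPM in transgenic adults, and all 12 fell in both constructs. Markers of neurons summed to 516 to 692 CPM in L4 and 214 to 328 CPM in adults, and those of cuticle and epidermis to 3510 to 4545 and 396 to 1227 CPM. The summed level of 10 germline markers was 129 to 263 CPM in L4 and 1955 to 3133 CPM in adults, that of 12 oocyte markers 33 to 114 and 2806 to 4610 CPM, and that of 10 intestine markers 4857 to 11096 and 60680 to 171922 CPM. No marker of muscle, neurons, germline, oocytes or intestine was at 0 in a whole group. Their part in the stage differences of the 46 genes was not tested.

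**Figure D2:**
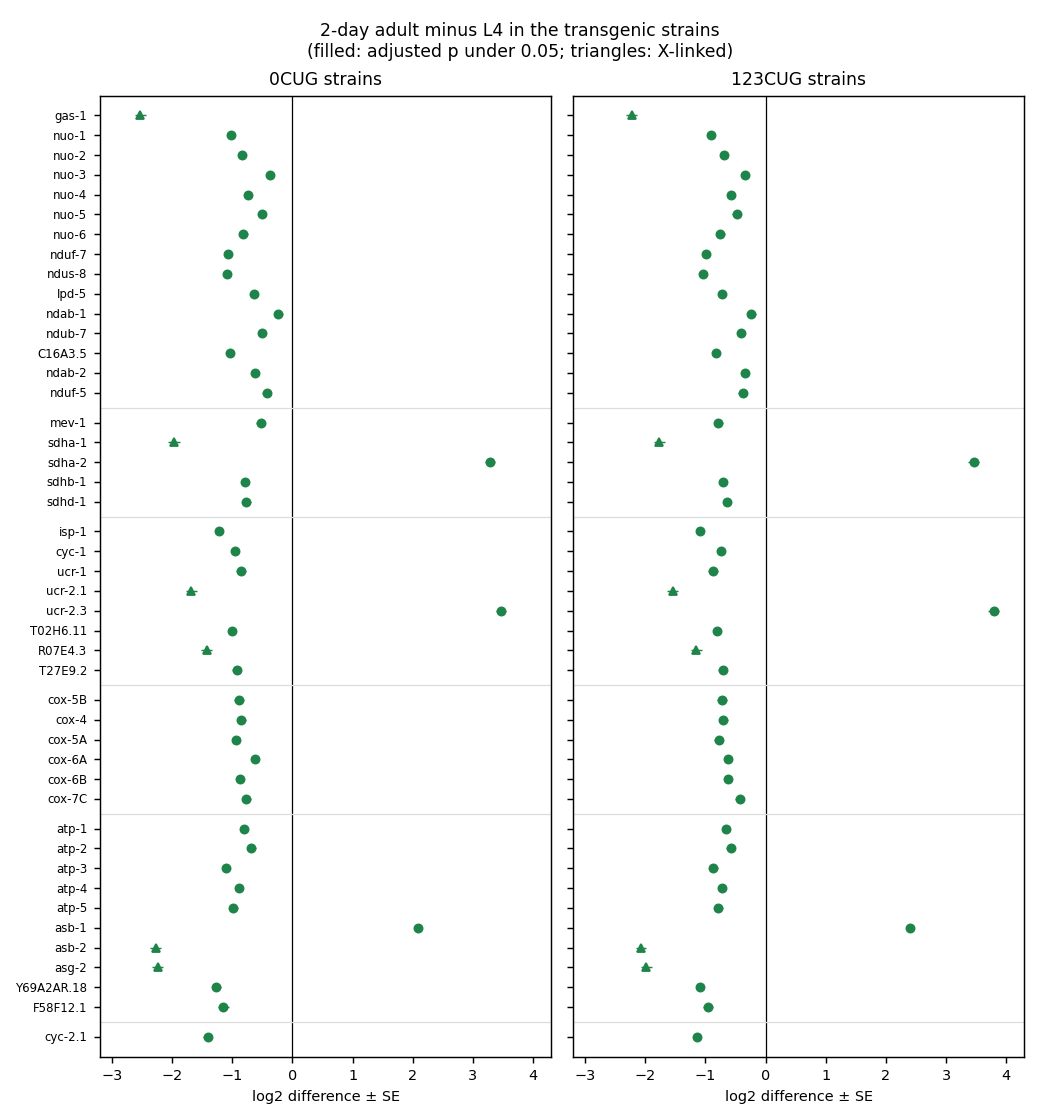
Difference between 2-day adults and L4 (log2, x axis) for 45 of the genes, grouped by complex, for 0CUG and 123CUG, with bars for the SE; filled symbols have an adjusted p under 0.05, triangles mark genes on chromosome X, and cyc-2.2 is left out because its adult reads were near 0. Only sdha-2, ucr-2.3 and asb-1 lie right of 0, and the triangles lie at -1.15 or lower.

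The 3 genes that rose are each a paralogue of a gene that fell. In complex II the flavoprotein, which holds the succinate site, comes from sdha-1 (chromosome X, 8543181 to 8546021) and sdha-2 (chromosome I, 10683268 to 10685587). In transgenic L4 libraries sdha-1 ran from 187 to 251 CPM (median 232) and sdha-2 from 16.4 to 24.9 CPM (median 18.01). In transgenic adults sdha-1 ran from 39.2 to 83.0 CPM (median 69.3) and sdha-2 from 139 to 233 CPM (median 209). The stages did not overlap for either gene, and they lay in opposite order. sdha-1 changed by -1.97 ± 0.092 in 0CUG and -1.77 in 123CUG, and sdha-2 by 3.29 ± 0.084 (adjusted p = 1.19e-21) and 3.46 (adjusted p = 4.11e-22).

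The complex III core protein genes ucr-2.1 (chromosome X, 12018427 to 12021212) and ucr-2.3 (chromosome III, 879858 to 881507) behaved in the same way. In L4, ucr-2.1 ran from 249.6 to 355 CPM (median 325) and ucr-2.3 from 8.33 to 18.99 CPM (median 12.4). In adults the ranges were 63.5 to 139.9 CPM (median 115.8) and 119 to 209.7 CPM (median 173). Again neither gene's stages overlapped. ucr-2.1 changed by -1.68 in 0CUG and -1.54 in 123CUG, and ucr-2.3 rose by 3.47 ± 0.089 (adjusted p = 1.16e-21) and 3.79 (adjusted p = 2.33e-22). ucr-2.3 lies antisense to part of zer-1, and whether the counting used strand is not stated. zer-1 itself changed by 0.23 and 0.10.

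The b subunit, which links the head of ATP synthase to its membrane part, comes from asb-1 (chromosome III, 4594541 to 4595821), known as the form of the germline, and asb-2 (chromosome X, 4469743 to 4471480). asb-1 ran from 56.9 to 89.6 CPM in L4 (median 72.3) and from 245 to 432 CPM in adults (median 356). asb-2 ran from 488 to 718 CPM in L4 (median 670.1) and from 98.8 to 193 CPM in adults (median 153). Their L4 and adult ranges were apart, one rising and the other falling. asb-1 changed by 2.09 ± 0.068 (adjusted p = 8.81e-20) and 2.40 (adjusted p = 6.82e-21), and asb-2 by -2.28 ± 0.085 and -2.08.

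The ratio within these pairs was read from CPM per kilobase as the log2 of the autosomal over the X-linked gene. For asb-1 over asb-2 the group means lay between -3.40 and -2.68 in the 4 transgenic L4 groups and between 0.75 and 2.06 in the 4 transgenic adult groups. For sdha-2 over sdha-1 they lay between -3.66 and -3.196 in L4 and between 1.196 and 2.45 in adults. For ucr-2.3 over ucr-2.1 they lay between -4.97 and -3.92 in L4 and between 0.02 and 1.51 in adults. In every transgenic L4 group the X-linked gene was the higher, and in the transgenic adult groups the mean lay toward the autosomal gene. The ucr-2 genes of 0CUG strain 2 adults showed no order, with ratios of 0.38, -0.13 and -0.19 in the 3 libraries. The pair ndab-1 and ndab-2, both on chromosome III, stayed between -0.14 and 0.38 in all 8 transgenic groups. The handling of reads shared by paralogues is not stated.

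**Figure D3:**
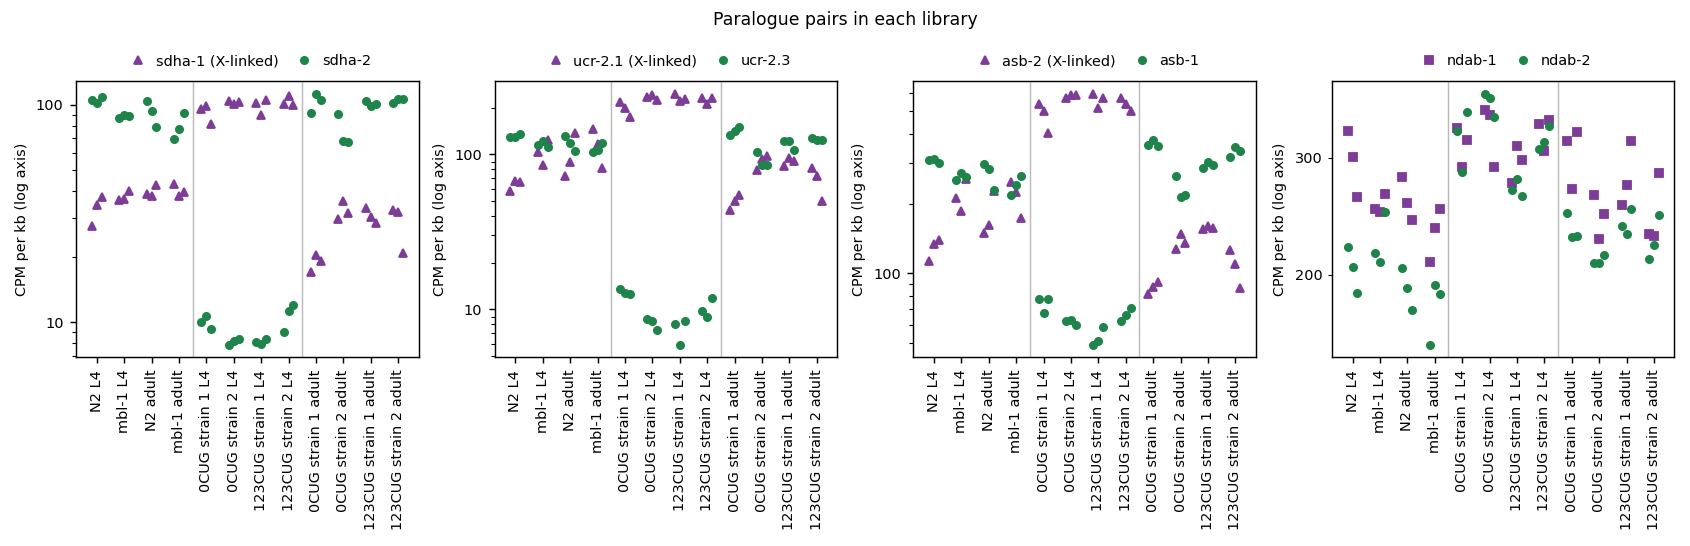
Level of both genes of 4 paralogue pairs in CPM per kilobase (y axes, log scale) in each of the 36 libraries (points), by group on the x axes; triangles mark X-linked genes. For the sdha, ucr-2 and asb pairs the X-linked gene lies far above its autosomal partner in the 12 transgenic L4 libraries, and the ndab genes show no such separation.

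The other cytochrome c gene, cyc-2.2, had next to no reads in adults. They numbered 86 to 806 per library in transgenic L4 and 8 in total over the 12 transgenic adult libraries, 7 of which had 0. Its group means were 12.09 to 27.9 CPM per kilobase in L4. It was not tested in the 4 comparisons made within adults, which leaves 45 genes there. The sum of 10 sperm markers was 9.91 to 75.6 CPM in transgenic L4 and 16.09 to 32.4 CPM in transgenic adults, and the part of such cells in the cyc-2.2 reads was not tested.

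Position on chromosome X was a feature that the choice of genes did not use, noticed after the values were seen and given as a description. The 6 X-linked genes are gas-1, sdha-1, ucr-2.1, R07E4.3 (a small subunit of complex III), asb-2 and asg-2. Their median stage difference was -2.104 in 0CUG and -1.88 in 123CUG, against -0.85 and -0.72 for the 40 autosomal genes of the group. All tested genes on X had medians of -1.13 and -1.15, and all other genes -0.31 and -0.25.

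In N2 and in mbl-1 no member was called between the label L4 and the label 2-day adult. For N2, 0 of 46 genes and 0% of the 14027 genes tested passed edgeR's quasi-likelihood test, with 4 members and 2098 of all genes at an unadjusted p under 0.05 and 13 genes of the whole table called by DESeq2. For mbl-1, 0 of 46 were called where 0.563% of genes were, with 2 members at an unadjusted p under 0.05 (14.7% of all genes) and 651 genes called by DESeq2. The difference between the genotypes in this stage contrast was called for 0 members and 0.00713% of genes, with 1 member at an unadjusted p under 0.05 (9.72% of all genes) and 143 genes called by DESeq2. Under the label L4 the pair ratio of asb-1 over asb-2 averaged 1.26 in N2 and 0.28 in mbl-1, and under the label 2-day adult 0.60 and 0.17. For sdha-2 over sdha-1 the means were 1.67 and 1.23 under the label L4 and 1.199 and 0.97 in adults. For ucr-2.3 over ucr-2.1 they were 1.03 ± 0.099 (SD, n = 3) and 0.18 ± 0.33 under the label L4 and 0.30 ± 0.63 and -0.02 ± 0.53 in adults. The mbl-1 means of the ucr-2 pair and its N2 adult mean were smaller than the spread between libraries. So was the mbl-1 adult mean of the asb pair (SD 0.40). The asb means of mbl-1 labelled L4 (SD 0.26) and of N2 adults (SD 0.52) were close to their spread.

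The comparison of mbl-1 with N2 asks how the genes stand when muscleblind is mutated. Under the label L4, 21 of the 46 genes were higher in mbl-1 and 0 were lower, where 51.4% of the 13264 genes tested were called, 29.7% higher and 21.7% lower. The median was 0.22 (log2) over the 46 genes and 0.03 over all genes. The rises were spread unevenly: 2 of 15 genes of complex I, 1 of 5 of complex II, 5 of 8 of complex III, 4 of 6 of complex IV, 7 of 10 of ATP synthase and both cytochrome c genes. The count includes cyc-2.2, which passed the filter on low counts through its mbl-1 libraries, and without it 20 of 45 genes were higher. In 23 genes every mbl-1 library lay above every N2 library and in 3 every one lay below (30.6% and 31.9% of all genes).

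Among the well-read genes, asg-2 and asb-2 rose most, both of ATP synthase. asg-2 had 82.5, 88.9 and 96.0 CPM in N2 and 148, 128 and 180.3 CPM in mbl-1. asb-2 had 136, 161 and 168 CPM in N2 and 254, 224 and 309 CPM in mbl-1. All mbl-1 libraries lay above all N2 libraries for both genes. asg-2 rose by 0.83 ± 0.11 (adjusted p = 2.62e-05) and asb-2 by 0.82 ± 0.11 (adjusted p = 4.03e-05). The autosomal paralogue of asb-2, asb-1, had 356, 356 and 343 CPM in N2 and 289.7, 313 and 299.7 CPM in mbl-1. Its groups were apart in the other direction, but its difference of -0.17 was not called (adjusted p = 0.139). The beta subunit atp-2 had 1858, 2116 and 2171 CPM in N2 and 1850.2, 1946 and 2076 CPM in mbl-1, overlapping, with a difference of -0.01 (adjusted p = 0.954).

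In complex III, ucr-2.1 had 84.2, 97.2 and 96.0 CPM in N2 and 149, 123 and 177 CPM in mbl-1. All mbl-1 libraries were higher, and the rise was 0.75 ± 0.11 (adjusted p = 7.43e-05). isp-1 had 245, 272 and 275 CPM in N2 and 296, 297 and 353 CPM in mbl-1. It was higher in every mbl-1 library, with a rise of 0.32 (adjusted p = 0.0149). R07E4.3 rose by 0.58 ± 0.12 (adjusted p = 0.000911).

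In complex I the core subunit gas-1 had 60.0, 65.6 and 69.8 CPM in N2 and 86.7, 81.1 and 110.4 CPM in mbl-1. The groups did not overlap, and gas-1 rose by 0.57 ± 0.11 (adjusted p = 0.000607). The other complex I gene called was C16A3.5, an accessory subunit. In complex II, mev-1 had 77.9, 89.2 and 89.6 CPM in N2 and 102, 102 and 117 CPM in mbl-1, higher in every mbl-1 library. It rose by 0.38 ± 0.091 (adjusted p = 0.0032). The flavoprotein genes were not called, with differences of 0.24 (adjusted p = 0.0576) for sdha-1 and -0.20 (adjusted p = 0.0702) for sdha-2.

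In complex IV, cox-5B had 333, 319 and 296 CPM in N2 and 338, 338 and 406 CPM in mbl-1. The mbl-1 libraries were all higher by a small margin, and the difference of 0.25 was not called (adjusted p = 0.0557). The largest rise called in the complex was that of cox-7C, a small nuclear subunit, at 0.38 (adjusted p = 0.00553). The cytochrome c gene cyc-2.1 had 385, 374 and 377 CPM in N2 and 487, 443 and 578 CPM in mbl-1. It was higher in every mbl-1 library and rose by 0.46 ± 0.11 (adjusted p = 0.00249). Its paralogue cyc-2.2 had 5, 6 and 0 reads in N2 and 10, 21 and 14 reads in mbl-1, too few for its fitted rise of 2.22 ± 0.67 (adjusted p = 0.0123) to count as support.

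Tissue markers differed between the same libraries. The summed level of the 12 muscle markers was 1762 to 1960 CPM in N2 and 4449 to 6483 CPM in mbl-1, and all 12 were higher. The oocyte markers summed to 6552 to 8956 CPM in N2 and 3682 to 6025 CPM in mbl-1, with 11 of 12 lower, and the germline markers to 3310 to 3644 and 2556 to 2981 CPM, with 6 of 10 lower. Cuticle and epidermis markers summed to 587 to 600.4 CPM in N2 and 1050 to 1714 CPM in mbl-1, neuron markers to 198 to 227 and 268 to 327 CPM, and sperm markers to 17.6 to 19.1 and 25.5 to 37.03 CPM, and none of these ranges overlapped. Of the 6 X-linked members 5 rose, with a median of 0.67 against 0.19 for the autosomal members. All genes on X had a median of 0.40, with 44.5% higher, and all others -0.02, with 27.2% higher. The part of the markers in the rise of the 46 genes was not tested. When all 12 N2 and mbl-1 libraries were fitted together, 5 of the 21 calls were made, where 996 genes of the whole table were called in place of 6821 and the median of the members was 0.21. They were those of gas-1, mev-1, R07E4.3, asb-2 and asg-2, with adjusted p from 0.0273 to 0.0421, and 13 members were called without the second N2 library. sdha-2 was called lower with RLE scaling (-0.25, adjusted p = 0.0319), with library totals (-0.27) and with DESeq2 (-0.26), which also called asb-1 lower (-0.22).

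Among 2-day adults, 0 of 45 members differed between mbl-1 and N2, as did 0% of the 13286 genes tested. Of these, 0 members reached an unadjusted p under 0.05, against 5.23% of all genes, and DESeq2 called 107 genes and 0 members. The differences ran from -0.18 (sdha-2) to 0.33 (asg-2). asb-2 had 180.0, 196 and 272 CPM in N2 and 298, 270.2 and 209 CPM in mbl-1, with the third library of each group on the other genotype's side. In a fit without the third library of both groups, added after the data were seen, 3 of the 45 members were higher in mbl-1 and 0 were lower. Of all genes 32.4% were called in that fit, counting both directions. The members called were ucr-2.1 at 0.75 ± 0.17 (adjusted p = 0.0200), asb-2 at 0.66 (adjusted p = 0.0177) and asg-2 at 0.65 (adjusted p = 0.0177). The libraries left out lay on the other genotype's side in markers and in asb-2, so leaving them out widens the gap by itself. These p-values are therefore no support for a difference.

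**Figure D4:**
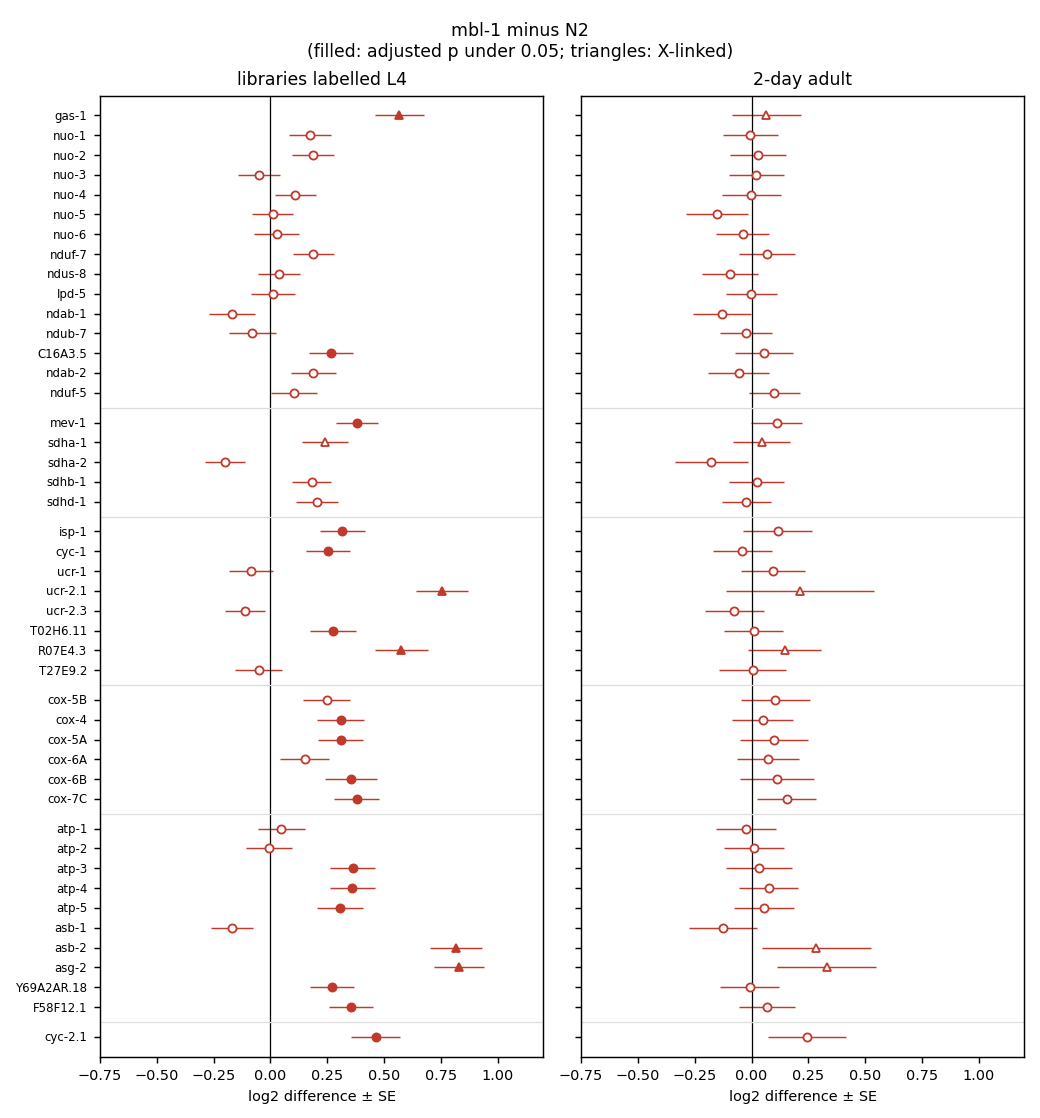
Difference between mbl-1 and N2 (log2, x axis) for 45 genes by complex, in libraries labelled L4 and in 2-day adults, with bars for the SE; filled symbols have an adjusted p under 0.05, triangles mark genes on chromosome X, and cyc-2.2 is left out. Filled symbols appear for the libraries labelled L4 and lie right of 0, and no symbol is filled for the adults.

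The comparison of 123CUG with 0CUG asks what the repeats add to the transgene. At L4, with the strains of a construct averaged, 1 of the 46 genes was lower and 0 were higher, where 14.4% of the 16210 genes tested were called, 9.36% lower. The gene was ndab-2, with a difference of -0.19 ± 0.060 (adjusted p = 0.0426). It had 166, 173 and 163 CPM in 123CUG strain 1, 192, 196 and 208 in strain 2, 204, 177 and 218 in 0CUG strain 1 and 232, 229 and 214 in 0CUG strain 2. The lowest values were those of 123CUG strain 1, and the constructs overlapped. The call was lost without 8 of the 12 libraries, each left out in turn, and with the replicate block. Every strain of one construct was also set against every strain of the other, and 0 members were called in the same direction in all 4 such pairs, which share strains (0.117% of genes higher and 1.43% lower).

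In 2-day adults 7 of 45 members were higher in 123CUG and 0 were lower, where 5.74% of the 14070 genes tested were called higher and 4.33% lower. The median was 0.15 over the members and 0.03 over all genes. The 7 were cox-7C and cox-4 of complex IV, gas-1 of complex I, atp-3 (the OSCP subunit of the stalk), Y69A2AR.18 (the gamma subunit) and asb-2 of ATP synthase, and cyc-2.1. cox-7C changed most, by 0.36 ± 0.086 (adjusted p = 0.00877). It had 243, 273 and 250.0 CPM in 123CUG strain 1, 241, 181 and 187 in strain 2, 170.4, 143 and 174 in 0CUG strain 1 and 196, 215 and 176 in 0CUG strain 2. 123CUG strain 1 lay highest, and the second strains overlapped. gas-1 differed by 0.35 ± 0.093 (adjusted p = 0.0172), atp-3 by 0.32 ± 0.082 (adjusted p = 0.0135), cyc-2.1 by 0.29 ± 0.074 (adjusted p = 0.0151) and the others by 0.26.

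The size of these differences varied with the strains compared, and for gas-1 and asb-2 so did the direction. No member had constructs that did not overlap (1.27% of all genes), and 0 members were called in the same direction in all 4 strain pairs (0.192% of genes higher and 0.220% lower). For gas-1 the difference was 1.01 between the first strains, 0.39 for 123CUG strain 1 against 0CUG strain 2, 0.32 for 123CUG strain 2 against 0CUG strain 1 and -0.30 between the second strains. For cox-7C the same values were 0.64, 0.40, 0.32 and 0.08, for atp-3 0.39, 0.39, 0.26 and 0.26, and for asb-2 0.84, 0.22, 0.30 and -0.32. Between the second strains asb-2 was thus called lower in 123CUG (adjusted p = 0.0447, edgeR), where 10.5% of all genes were. The strain that lay highest, 123CUG strain 1, also stood apart in markers. Those of muscle summed to 2833 to 3239 CPM in it and 1475 to 2355 CPM in the other 3 strains, and those of cuticle and epidermis to 992 to 1227 and 396 to 802 CPM. Between the constructs 3 of the 12 muscle markers were called higher in 123CUG and 1 lower, and 6 of 12 oocyte markers lower. The part of these markers was not tested. The count was 3 without any one of the second library of 123CUG strain 1, the first of 123CUG strain 2 or the first of 0CUG strain 1. It was 4 without any one of the third library of 123CUG strain 1, the second of 0CUG strain 1 or the third of 0CUG strain 2, and 20 without the third of 123CUG strain 2. With library totals alone as the scale 2 were higher and mev-1 was lower (-0.27, adjusted p = 0.0211). In that fit 1376 genes were called in all, 39.3% of them higher.

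Strains that carry the same construct also differed. Among 0CUG adults, strain 1 was higher than strain 2 in 14 of 45 members and lower in 6, where 44.6% of genes were called, 22.3% in each direction. In complex I, 9 genes were higher and 1 was lower, and no complex IV gene was called. mev-1 differed most upward: it had 121, 137 and 136 CPM in strain 1 and 76.3, 79.8 and 73.1 CPM in strain 2. The strains were apart, by 0.81 ± 0.11 (adjusted p = 5.35e-06), and the overlapping gene ced-9 differed by 0.77. asb-1 was higher by 0.68 (adjusted p = 3.35e-05), ucr-2.3 by 0.66 (adjusted p = 3.40e-05) and sdha-2 by 0.48. The 6 lower genes were the 6 on chromosome X. ucr-2.1 differed most, with 63.5, 72.3 and 78.6 CPM in strain 1 and 114, 135 and 139.9 CPM in strain 2. All its strain 1 libraries were lower, by 0.83 on the log2 scale ± 0.14 (adjusted p = 7.70e-05). The X-linked members had a median of -0.62 and the autosomal members 0.19, where all genes on X had -0.57 and all others 0.11. The intestine markers summed to 60680 to 74477 CPM in strain 1 and 142649 to 171922 CPM in strain 2, with all 10 lower, and the germline markers to 2940 to 3133 and 1955 to 2493 CPM, with 9 of 10 higher. Their part was not tested. With library totals alone as the scale, 28 members were higher and 5 lower, where 7030 genes were called in all, 62.3% of them higher. Without the first library of 0CUG strain 1 the count of 20 was 13.

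Among 123CUG adults, strain 1 was higher than strain 2 in 3 members, gas-1, asg-2 and asb-2, and lower in 0, where 5.39% of genes were called, 3.46% higher. gas-1 had 96.0, 95.3 and 87.3 CPM in strain 1 and 68.0, 60.6 and 42.9 CPM in strain 2. The strains were apart, by 0.69 ± 0.13 (adjusted p = 0.00199). asg-2 differed by 0.61 ± 0.14 (adjusted p = 0.0109) and asb-2 by 0.54 ± 0.11 (adjusted p = 0.00414). The muscle markers summed to 2833 to 3239 CPM in strain 1 and 1475 to 2119 CPM in strain 2, with 9 of 12 higher, and their part was not tested. Without the first library of 123CUG strain 2 the count was 7.

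At L4 the 0CUG strains differed in 1 member, where 1.18% of genes were called, 0.204% lower. atp-3 had 673, 604 and 603 CPM in strain 1 and 781, 814 and 721 CPM in strain 2. Strain 1 was lower in every library, by 0.37 on the log2 scale ± 0.086 (adjusted p = 0.0393). The difference was negative in 42 of the 46 members, with a median of -0.25 against 0.02 for all genes, and 36 members had an unadjusted p under 0.05 (14.7% of all genes). Between the same libraries, germline markers summed to 222 to 263 CPM in strain 1 and 146 to 169 CPM in strain 2, oocyte markers to 73.5 to 87.5 and 33.1 to 45.2 CPM, and sperm markers to 56.1 to 75.6 and 34.5 to 50.3 CPM. Muscle markers overlapped, at 10337, 7678 and 6967 CPM in strain 1 and 10128, 10559 and 9786 CPM in strain 2. The 46 members summed to 21490, 19559 and 18056 CPM in strain 1 and 22853, 23176 and 21980 CPM in strain 2. The part of the markers was not tested. The count of members depended on the setting: DESeq2 called 17 members lower and ucr-2.3 higher (0.59, adjusted p = 0.0287), where it called 563 genes in all. edgeR called 16 members without the first library of 0CUG strain 1, 4 without the third of 0CUG strain 2 and 0 without any one of 8 others of the 12 libraries. With library totals as the scale only ucr-2.3 was called among the members, higher by 0.70, where 307 genes were called in all. The 123CUG strains at L4 differed in 0 members where 9.63% of genes were called, with 7 members at an unadjusted p under 0.05 (23.0% of all genes) and 0 called by DESeq2.

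**Figure D5:**
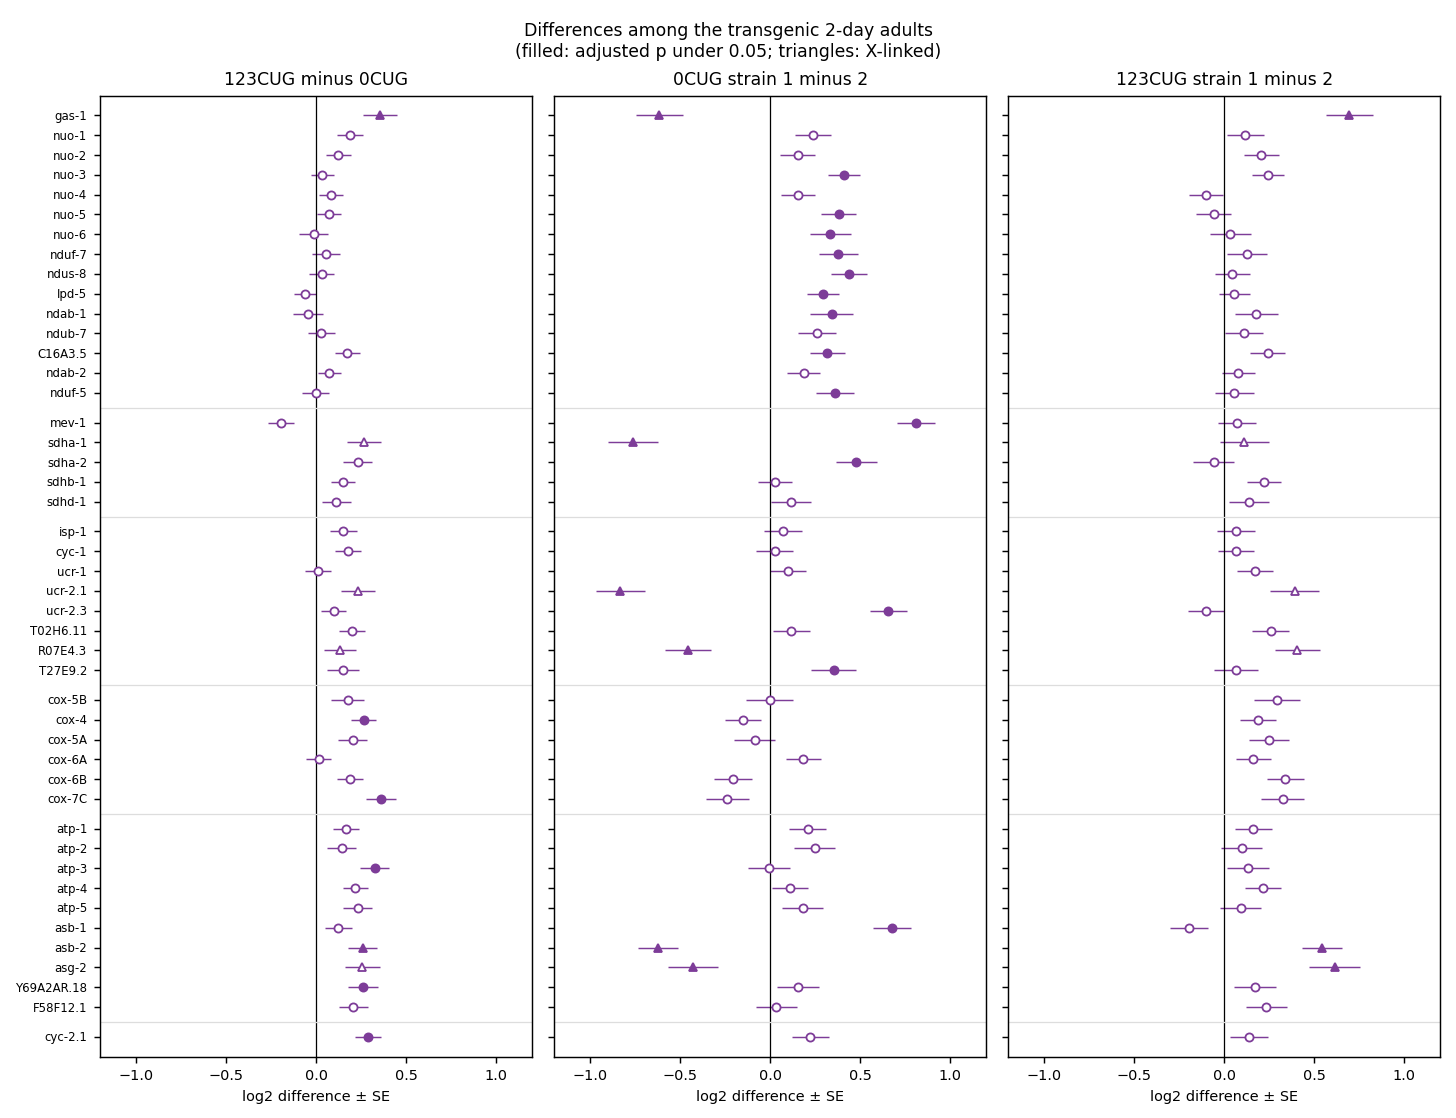
Differences in 2-day adults (log2, x axis) for 45 genes by complex, for 123CUG minus 0CUG and for strain 1 minus strain 2 within each construct, with bars for the SE; filled symbols have an adjusted p under 0.05, triangles mark genes on chromosome X, and cyc-2.2 is left out. The X-linked triangles lie left of 0 between the 0CUG strains, where autosomal genes lie on both sides, and the filled symbols of the 123CUG strains are all triangles.

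Whether the stage difference itself depended on the construct was tested as an interaction. It was larger in 123CUG (that is, a smaller fall or a larger rise) for 2 of the 46 genes, where 5.93% of 17248 genes were called, 3.98% in this direction. These were asb-1, at 0.31 ± 0.092 (adjusted p = 0.0462), and ndab-2, at 0.28 ± 0.085 (adjusted p = 0.0461). Both lay close to the threshold, and 0 members were called with RLE scaling, without the filter on low counts or with library totals as the scale, and without 18 of the 24 libraries, each left out in turn. The SE of these differences holds the spread between libraries, not between the 2 strains of a construct.

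Other genes of the pathway, not members, were counted by list. Beside the stage counts, 48.3% of all genes were lower and 34.4% higher in 0CUG adults, and 47.1% and 35.5% in 123CUG adults. Of 12 subunits encoded in the mitochondrial genome, 7 were lower in 0CUG adults than in L4 and 5 in 123CUG adults, 0 were higher, and the largest falls were those of COX3 (-0.56, 0CUG) and CYTB (-0.57, 123CUG). They summed to 14593 to 19159 CPM in transgenic L4, 12110 to 16086 CPM in transgenic adults and 10363 to 15089 CPM in N2 and mbl-1, so their stages overlapped, whereas the sums of the 46 nuclear genes did not. Of 27 further nuclear subunits, 26 fell in 0CUG and 24 in 123CUG. The largest fall was that of ucr-2.2, another gene of the core protein family, at -2.27 and -1.98, and asg-1, a paralogue of asg-2, rose by 0.25 and 0.44. Of 12 assembly factors, 6 rose in each construct, led by nuaf-1 (0.89, 0CUG) and bcs-1 (0.88, 123CUG), whose yeast counterpart inserts the Rieske protein, and 4 and 3 fell, led by cox-10 at -1.32 and -1.26. All 4 ADP/ATP carrier genes were called lower in both. Of these ant-1.1 was well read, at 2612 to 4065 CPM in L4 and 1901 to 2524 CPM in adults, and ant-1.4 stood at 2.76 to 9.88 CPM in L4 with several adult libraries at 0, so it could pass the filter only through L4. ant-1.2 was read too little in either stage to rest a direction on. Both genes of the ATP synthase inhibitor fell too, with mai-2 at -1.06 and -0.92. Of 8 genes of ubiquinone synthesis, 1 rose in each construct and 4 and 3 fell.

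Between mbl-1 and N2 labelled L4, 4 of the 12 mitochondrial subunits were higher (ND3 by 0.53) and 10 of the 27 further nuclear subunits (cox-6C by 0.50), with 0 lower in both lists. Of all genes 29.7% were higher and 21.7% lower in this comparison, so the counts of higher genes lay near the share of all genes. Of the assembly factors 1 was lower (bcs-1, -0.27), of the carriers ant-1.1 was higher (0.28), and 0 genes of ubiquinone synthesis and 0 inhibitor genes were called. Between the 0CUG strains in adults, 8 of the 27 further nuclear subunits were higher in strain 1 and 3 were lower, where 22.3% of all genes were called in each direction.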

How the data were processed

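RNA from whole animals was sequenced in 36 libraries. The authors deposited whole-number counts per gene in 10 tables of 6 libraries each. The submitters' processing notes name HISAT2, DESeq2 and WBcel235. The counting tool, its use of strand and the annotation release were not given in the sources used here. Tables were joined to 24931 named genes, and all 465954 values present in more than one table were equal. Rows for 500 loci without a gene name held 0.0201 to 0.0643% of the reads and were left out. Symbols were matched for 24439 identifiers. Members and gene lists were chosen with earlier results of these data known.

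Tests were edgeR 4.0.16 quasi-likelihood fits in R 4.3.3 (TMM scaling, filterByExpr, robust), on the libraries of the groups compared, with Benjamini-Hochberg adjustment over all genes and a threshold of 0.05. DESeq2 1.42.0 was an alternative. All 46 members passed the filter in 10 of the 14 comparisons and 45 in the other 4. Values by library are given for 1 member per complex taken for its role, the paralogue pairs, and the called members with the largest rise and fall of each comparison. The fits were run on simulated counts to check that the fitted size followed the change put in. The simulated libraries had no differences between strains of a construct and none that went against its group, so calls affected by these were not checked. Mappings to groups came from the titles. Replicate numbers did not pair the samples: in 0 of 34 pairs of groups did all same-numbered libraries deviate together (r above 0.1), so the blocked fits are alternatives only. No replicate pair agreed within sampling noise.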

Additional observations from a re-analysis of the deposited data

Results flagged for a closer look

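For 2 genes the stage difference differed between the constructs by the test of the difference itself. For asb-1 the rise from L4 to adult was 2.09 in 0CUG and 2.40 in 123CUG, a difference of 0.31 ± 0.092 (log2, adjusted p = 0.0462, edgeR's quasi-likelihood test, 12 libraries per construct). The 12 libraries came from 2 strains, and the SE holds the spread between libraries, not between strains. Against 0CUG strain 1, asb-1 differed by -0.39 (123CUG strain 1) and -0.13 (123CUG strain 2) at L4 and by -0.31 and -0.12 in adults. Against 0CUG strain 2 it differed by -0.19 and 0.07 at L4 and by 0.37 and 0.56 in adults. For ndab-2 the fall was -0.62 in 0CUG and -0.34 in 123CUG, a difference of 0.28 ± 0.085 (adjusted p = 0.0461). Against 0CUG strain 1, ndab-2 differed by -0.16 (123CUG strain 1) and 0.03 (123CUG strain 2) at L4 and by 0.02 and -0.06 in adults. Against 0CUG strain 2 it differed by -0.40 and -0.21 at L4 and by 0.21 and 0.13 in adults. All genes were called in this direction at a share of 3.98%, near that of 2 in 46, and 0 of the 46 genes were called with RLE scaling, without the filter, with the replicate block, with library totals or without 18 of the 24 libraries in turn. Groups held 3 libraries each, so no single library was tested as an outlier.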

How the results depend on the processing

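The counts of members called in the stage comparisons of the transgenic strains stayed at 46 and 46 when any library was left out and with the replicate block. The 147 called gene values were recomputed in 3530 alternatives: 3328 kept their call, 202 lost it, none changed sign, and 111 values never lost it. Most of the 111 came from the transgenic stage comparisons, with 45 of 46 in 0CUG and 46 of 46 in 123CUG. For mbl-1 minus N2 labelled L4, 5 of 21 were never lost, and for 123CUG minus 0CUG adults 1 of 7. Between strains in adults it was 12 of 20 for 0CUG and 2 of 3 for 123CUG. No call within transgenic L4 or in the interaction was always kept. For mbl-1 minus N2 labelled L4 the count was 21 with the replicate block, 5 in the fit of all 12 libraries, and 13 to 26 with a library left out (13 without the second N2 library, 26 without the second mbl-1 library). In 2-day adults it was 3 without the third library of both groups and 0 with any one left out. For 123CUG minus 0CUG it was 0 at L4 with the replicate block and 0 to 2 with a library left out, and in adults 7 with the block, 3 with library totals and 3 to 20 with a library left out. Between the 0CUG strains at L4 it was 18 with DESeq2, 11 without the filter, 0 with the block and 0 to 16 with a library left out, and in adults 33 with library totals, 21 with the block and 13 to 24 with a library left out. Between the 123CUG strains it was 1 at L4 with library totals (0 to 2 with a library left out), and in adults 5 with DESeq2, 5 without the filter and 2 to 7 with a library left out. The construct-by-stage count was 1 with DESeq2, 0 with RLE scaling, without the filter, with the replicate block and with library totals, and 0 to 3 with a library left out. The mbl-1 stage count was 1 (ndus-8) without the third library of both groups, where 20.4% of all genes were called. The N2 and mbl-1 stage counts and their difference were 0 with any one library left out. Library totals and the fits without 1 library of both adult groups were chosen after seeing the data. Library totals moved the median of all genes between the 0CUG strains from 0.02 to 0.12 at L4 and from 0.02 to 0.16 in adults. The causes of these changes were not tested. Differences under about 0.2 (log2) were rarely called with 3 libraries a group.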
